A study of Mus musculus with 96 samples.

Results

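H3K27me3 promoter peaks in non-neuronal hippocampal nuclei were the 810 consensus peaks, of 1698 in the H3K27me3 table of NeuN- nuclei, whose deposited annotation begins with Promoter. The other 888 peaks of the table lay in introns, exons or between genes. The promoter peaks were assigned to 786 named genes and to 1 transcript without a symbol. Each peak is a window of 401 bp on the GRCm38 mouse genome, in which reads of chromatin immunoprecipitation with an antibody against trimethylated lysine 27 of histone H3 had been counted. Nuclei came from hippocampi of 6 months old male C57BL/6N mice. There were 4 genotypes, namely the wild type (WT), the single knockouts Ogg1-/- and Mutyh-/-, and DKO, the double knockout that lacks both genes. The 2 deleted genes encode DNA glycosylases, which begin the repair of oxidised bases, and the knockouts were constitutive, so every cell of the animal lacked the gene. Hippocampi of several animals of a genotype were pooled before nuclei were sorted, and there were 3 replicate libraries per genotype, 12 in all. NeuN- nuclei are those without the neuronal protein NeuN. They come mainly from glia, but vascular and other cells are in the same gate, so a change in cell composition and a change in the mark per cell cannot be told apart.

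H3K27me3 is laid down by Polycomb repressive complex 2 (PRC2), whose core is made of EZH1 or EZH2, EED and SUZ12. The mark is found at the promoters of genes that a cell type keeps silent, typically at CpG islands, and it helps to hold a lineage apart from the programmes of other lineages. H3K4me3, in contrast, marks promoters that are active or ready to be activated, and a promoter that carries both marks is called bivalent. In the adult brain, PRC2 keeps developmental regulators silent in neurons and in glia.

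Most of the promoter peaks lay close to a transcription start. Of the 810, 655 were annotated within 1 kb of the start of their gene and 155 between 1 and 2 kb. In 181 the window covered the start itself, 429 lay downstream of it and 200 upstream, and the median distance was 348.5 bp. An exon of GENCODE M21 reached into 471 windows, while 339 lay wholly in introns or outside transcripts. Protein-coding genes accounted for 755 of the peaks. MicroRNA genes accounted for 4, at Mir375, Mir196a-2, Mir124a-3 and Mir6236. No promoter peak lay on the X chromosome, which held 2 of the other peaks.

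Promoter peaks were richer in GC and CpG than the rest of the table. Their median GC content was 58.0%, against 49.6% in the other peaks, and their median ratio of observed to expected CpG dinucleotides was 0.55 against 0.23. Taking a GC content of at least 50% together with a ratio of at least 0.6 as CpG-rich, 327 promoter peaks (40.4%) were CpG-rich, against 67 of the other peaks (7.55%). The share was 46.6% within 1 kb of the start and 14.2% between 1 and 2 kb. Promoter peaks of H3K4me3 in the same NeuN- nuclei were CpG-rich in 94.3% of cases, so the H3K27me3 promoter peaks lay between those promoters and the rest of the H3K27me3 table. Peaks with at least 50% of their bases masked as repeat numbered 11 among the 810 promoter peaks and 83 (9.35%) among the 888 others.

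**Figure D1:**
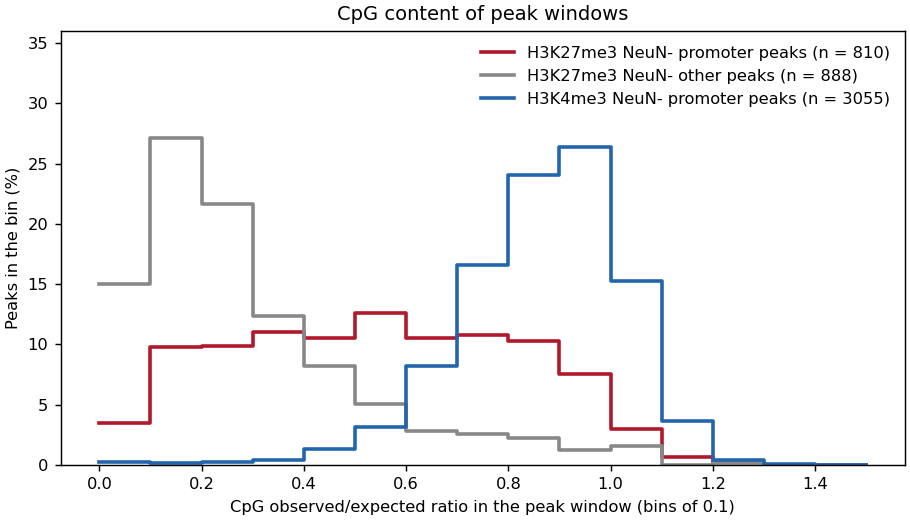
Distribution of the observed to expected CpG ratio (horizontal axis, bins of 0.1) in H3K27me3 promoter peaks and other peaks of NeuN- nuclei and in H3K4me3 promoter peaks of NeuN- nuclei, as a percentage of each set (vertical axis). The other H3K27me3 peaks pile up at low ratios, the H3K4me3 promoter peaks at high ratios, and the 810 H3K27me3 promoter peaks spread across both, with a median of 0.55.

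The range can be read from single windows. The next lines show 300 bases of the plus strand of GRCm38 from 5 promoter peaks, chosen so that no annotated exon is included, with every CpG dinucleotide in capitals. Rbfox3 encodes NeuN, the protein used for sorting. Dlgap2, which encodes a postsynaptic scaffold, has the highest level with such a stretch among CpG-rich peaks whose gene carries H3K4me3 and no H3K27me3 at the promoter in NeuN+ nuclei. Tcfl5, a transcription factor gene, has the highest level with such a stretch among peaks that are not CpG-rich, leaving out windows above a mean of 20 and repeats. Rasgef1a and Chat are promoters whose values in the knockouts are given with the comparison of genotypes.

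Rbfox3, chr11:118908095-118908394: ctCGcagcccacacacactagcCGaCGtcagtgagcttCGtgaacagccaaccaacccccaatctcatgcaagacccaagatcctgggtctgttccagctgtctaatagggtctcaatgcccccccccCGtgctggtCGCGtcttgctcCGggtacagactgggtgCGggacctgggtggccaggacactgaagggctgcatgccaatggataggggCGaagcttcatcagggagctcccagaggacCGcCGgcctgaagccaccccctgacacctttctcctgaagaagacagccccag

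Dlgap2, chr8:14096189-14096488: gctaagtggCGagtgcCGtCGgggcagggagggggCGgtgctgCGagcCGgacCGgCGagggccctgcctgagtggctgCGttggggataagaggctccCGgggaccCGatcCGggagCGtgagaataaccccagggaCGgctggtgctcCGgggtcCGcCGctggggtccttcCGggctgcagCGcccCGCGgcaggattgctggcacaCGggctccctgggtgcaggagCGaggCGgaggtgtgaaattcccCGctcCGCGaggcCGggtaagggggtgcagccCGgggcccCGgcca

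Tcfl5, chr2:180641630-180641929: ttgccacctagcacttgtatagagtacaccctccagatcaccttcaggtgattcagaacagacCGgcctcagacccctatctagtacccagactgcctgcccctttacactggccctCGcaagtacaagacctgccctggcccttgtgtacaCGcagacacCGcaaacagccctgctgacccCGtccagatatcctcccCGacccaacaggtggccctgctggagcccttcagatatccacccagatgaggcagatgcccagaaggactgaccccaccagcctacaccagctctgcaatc

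Rasgef1a, chr6:118011684-118011983: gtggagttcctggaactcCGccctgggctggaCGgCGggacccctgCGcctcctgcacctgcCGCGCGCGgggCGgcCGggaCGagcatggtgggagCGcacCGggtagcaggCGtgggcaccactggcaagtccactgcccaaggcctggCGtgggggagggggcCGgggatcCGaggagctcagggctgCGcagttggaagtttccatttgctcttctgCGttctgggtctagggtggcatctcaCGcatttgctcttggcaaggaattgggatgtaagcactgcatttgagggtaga

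Chat, chr14:32461241-32461540: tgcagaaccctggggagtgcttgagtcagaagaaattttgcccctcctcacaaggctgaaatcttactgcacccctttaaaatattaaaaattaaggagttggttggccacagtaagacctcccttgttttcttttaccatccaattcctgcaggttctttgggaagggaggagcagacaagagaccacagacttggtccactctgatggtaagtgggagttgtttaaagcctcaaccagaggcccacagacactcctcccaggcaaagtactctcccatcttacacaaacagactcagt

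In these 300 bases, Dlgap2 has 30 CpG dinucleotides, Rasgef1a 20, Rbfox3 12, Tcfl5 6 and Chat 0. As 327 of the 810 windows were CpG-rich, a window could be in the table without being so. The stretches shown leave out exons, so they do not measure the CpG content of a whole promoter.

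Levels are given as normalised read counts, that is the reads in the window divided by a factor for the library. They were low at nearly all promoter peaks. The median of the mean over 12 libraries was 5.66, with quartiles of 3.96 and 7.77, and 4 of the 810 peaks had a mean above 20. These 4 were annotated to Rn45s, Zc3h7a, Aida and Sfi1. The Rn45s window had 651, 305 and 247 in WT, 1871, 381 and 219.6 in Mutyh-/-, 1803, 241 and 1368 in Ogg1-/-, and 1536, 185 and 919.8 in DKO. Rn45s is the 45S precursor of ribosomal RNA, a gene present in many copies, so reads of other copies cannot be told apart from those of the annotated one. The Sfi1 peak, with a mean of 40.0, was 1 of 3 promoter peaks of this gene, which encodes a centrosomal protein, and in the other 2 at least 62.6% of the bases are masked as repeat, which also leaves the origin of their reads uncertain.

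Ordered by the mean of log2(value + 1), the next highest promoter peaks belonged to genes of other tissues and to neuronal genes. Olig3, a basic helix-loop-helix factor of progenitors in the hindbrain and spinal cord, had a mean of 15.5, and Wt1, a zinc finger factor of kidney and gonad, 15.7. Vwa2, which encodes an extracellular matrix protein, had 14.9, and Nefh, which encodes the heavy neurofilament chain of neurons, 14.02. Dlgap2 had 13.7, and Gja3, which encodes a connexin of the eye lens, 11.7. At Nefh the values were 9.27, 9.12 and 20.8 in WT, 19.2, 2.11 and 5.78 in Mutyh-/-, 23.7, 12.3 and 22.7 in Ogg1-/-, and 15.6, 7.40 and 20.4 in DKO. The 4 genotypes overlapped there, as the libraries of a genotype differed by more than the genotypes did.

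The depth of single windows was small. Libraries had 2438 to 12109 reads in promoter peaks, with a median of 2 to 11 reads per peak, and between 2.59% and 39.4% of the promoter peaks had no read in a library. Reads were present in all 12 libraries at 116 of the 810 peaks, and in fewer than 6 libraries at 14. Over promoter peaks, the mean Spearman correlation between libraries was 0.222 within a genotype and 0.231 between genotypes. Values of a single promoter in a single library therefore carry large counting error.

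Differences in level between classes of promoter peaks were tested within libraries. For each library, the mean of log2(value + 1) was taken over each class, and the 12 differences were set against all 4096 assignments of their signs in an exact two-sided permutation test, adjusted over 7 such tests. The smallest p of this test is 0.000488, here 0.000684 after adjustment, reached whenever all 12 libraries differ the same way. It measures how steady a difference is over libraries for a fixed set of peaks, and not the spread between peaks, so a few tall windows can give it. Promoter peaks were higher than the other peaks by 0.36 ± 0.29 on the log2 scale (SD, n = 12 libraries), in 11 of 12 libraries, with an adjusted exact p of 0.00171. The direction turned among peaks with a mean value of at least 5, where promoter peaks were lower by a difference of -0.30, and it was 0.15 among peaks with a mean between 5 and 20 and also with a pseudocount of 5. Above a mean of 20 there were 34 peaks, of which 4 were promoter peaks. CpG-rich promoter peaks were higher than the other promoter peaks by 0.61 ± 0.21 (SD, n = 12 libraries), in all 12 libraries, with an adjusted exact p of 0.000684. This difference was 0.60 without the peaks above a mean of 20, but 0.27 among peaks with a mean of at least 5 and 0.34 with a pseudocount of 5 in place of 1.

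Few of these promoters had an H3K4me3 peak in the same nuclei. By an overlap of at least 1 bp, 25 of 810 windows (3.09%) met an H3K4me3 peak of NeuN- nuclei, against 6.76% of the other peaks of the table, and 66 (8.15%) belonged to a gene with an H3K4me3 promoter peak there. Among protein-coding genes, 7.96% of the 729 with an H3K27me3 promoter peak had an H3K4me3 promoter peak in NeuN- nuclei, against 13.2% of all 21896. The 25 windows had a higher H3K27me3 level than the other promoter peaks, by 0.62 ± 0.23 (SD, n = 12 libraries; adjusted exact p = 0.000684). They include the tall windows at Zc3h7a and Aida, and the difference was 0.29 without peaks above a mean of 20 and 0.27 among promoter peaks within 1 kb. The 24 H3K4me3 promoter peaks that met them were lower in H3K4me3 than other promoters by a difference of -0.19 ± 0.30, with an adjusted exact p of 0.0469, and this call was lost in 12 of 19 alternatives, with an unadjusted exact p between 0.0527 and 0.454 where it was lost. Within 1 kb of the start the difference was larger, -0.50.

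Peaks of SUZ12, the PRC2 subunit, met 12 promoter peaks in NeuN- nuclei (1.48%) and 79 in NeuN+ nuclei (9.75%). Of the other peaks of the table, 6.87% met a SUZ12 peak in NeuN- and 7.43% in NeuN+ nuclei. The NeuN- SUZ12 table held 312 peaks of any annotation, 56 of them promoter peaks, which limits the overlap. The 12 included the tall windows at Rn45s, Zc3h7a and Aida, 2 windows at Sfi1, and windows at Mir6236, Megf11, Zfp982 and 4931408C20Rik. They also included 3 developmental genes, Nkx2-4, a homeobox gene with a mean level of 12.2, Aldh1a2, which encodes an enzyme of retinoic acid synthesis, with 8.73, and Tfap2e, an AP-2 transcription factor gene, with 7.20. Over the 12, the H3K27me3 level was higher than in the other 798 by 1.50 ± 0.31 (SD, n = 12 libraries; adjusted exact p = 0.000684). Without the windows above a mean of 20 the difference was 0.23 with an unadjusted exact p of 0.125, and within 1 kb of the start it was 0.32, so most of it rested on the tall windows.

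Set beside NeuN+ nuclei, the H3K27me3 promoter peaks of NeuN- nuclei fell into 2 large groups and 2 smaller ones. For each, it was asked which promoter peaks the same gene had in the tables of NeuN+ nuclei. In 244 (30.1%) the gene had an H3K27me3 promoter peak in NeuN+ nuclei and no H3K4me3 promoter peak there. In 300 (37.0%) it had an H3K4me3 promoter peak and no H3K27me3 promoter peak in NeuN+ nuclei. Both marks were present in NeuN+ nuclei in 133 (16.4%) and neither in another 133 (16.4%). Of the 300, 40 belonged to genes that also had an H3K4me3 promoter peak in NeuN- nuclei, which leaves 260 with H3K27me3 in NeuN- and H3K4me3 in NeuN+ nuclei alone. CpG-rich windows made up 34.8% of the first group and 51.0% of the second. The tables differ in depth and were called separately, so the lack of a peak does not show that a mark was absent.

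Among protein-coding genes, these shares can be set beside those of the whole genome. Of the 729 genes with an H3K27me3 promoter peak in NeuN- nuclei, 46.5% had one in NeuN+ nuclei too, and these were 36.1% of the genes with one in NeuN+ nuclei, against 4.28% of all coding genes. For NeuN+ H3K4me3 the share was 55.0%, against 48.7% of all coding genes. For NeuN+ SUZ12 it was 24.6%, against 1.74%. These shares are descriptions, with no test.

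By position, 145 windows (17.9%) overlapped an H3K27me3 peak of NeuN+ nuclei. These had a higher H3K27me3 level in NeuN- nuclei than the other 665, by 0.33 ± 0.07 (SD, n = 12 libraries), in 12 of 12 libraries, with an adjusted exact p of 0.000684. The difference was 0.18 among peaks with a mean of at least 5 and 0.11 when peaks were matched by gene, as for the 4 groups above, in place of by position. H3K4me3 peaks of NeuN+ nuclei overlapped 172 windows (21.2%), and 41.9% of the CpG-rich ones. In NeuN+ nuclei, those 172 H3K4me3 promoter peaks had a lower H3K4me3 level than the other 11599, by a difference of -0.28 ± 0.07 (SD, n = 12 libraries), in all 12 libraries, with an adjusted exact p of 0.000684. The median of the mean H3K4me3 value was 19.2 there, against 24.3 at the other promoters.

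**Figure D2:**
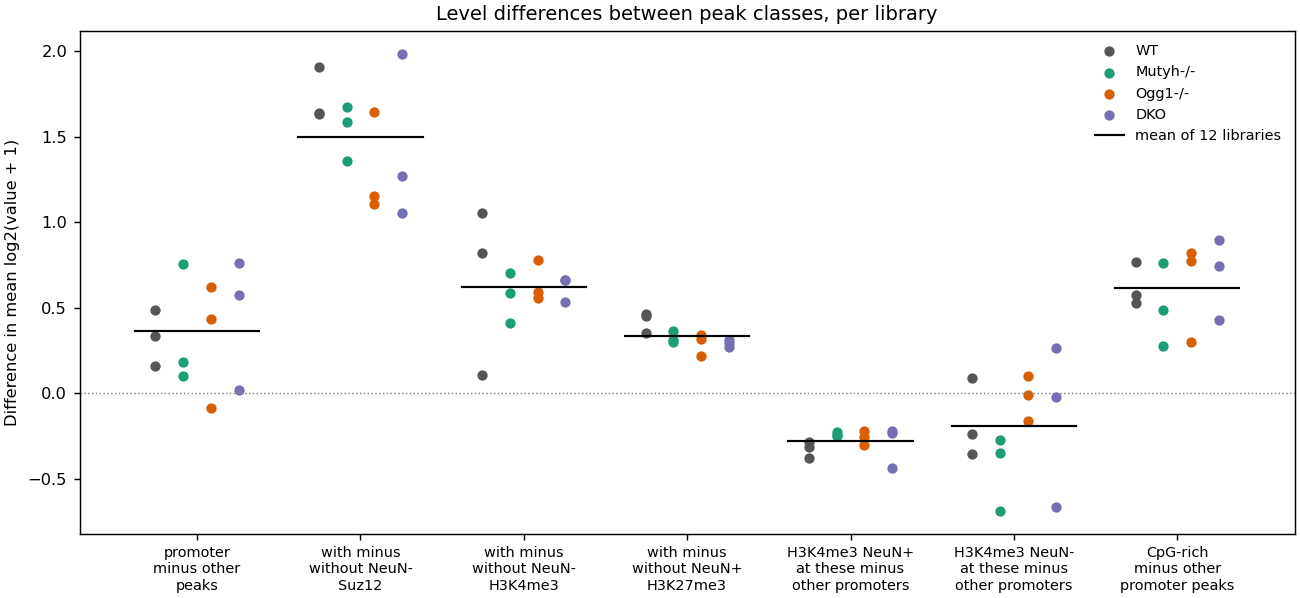
Difference in mean log2(value + 1) between the named peak classes (vertical axis), with 1 dot per library coloured by genotype and a line at the mean of 12 libraries. The first 4 columns and the last compare H3K27me3 levels in NeuN- nuclei, and the columns headed H3K4me3 compare H3K4me3 levels in that fraction. The H3K4me3 NeuN- column has dots on both sides of 0, while the column for overlap with NeuN+ H3K27me3 has all 12 above it.

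Gene lists were counted in each of these groups, as descriptions with no test. Developmental transcription factors outside the Hox clusters gave 128 promoter peaks at 125 genes, which were 40.8% of the 306 genes of that list, against 3.33% of all coding genes. The same list had 168 of the 888 other peaks, beside 128 of the 810 promoter peaks, so it was not particular to promoter peaks. Their gene had H3K27me3 in NeuN+ nuclei in 90 of 128 (70.3%), against 46.5% of all promoter peaks. The 4 highest were Olig3, Wt1, Foxi3 with a mean of 13.2 and Lhx8 with 11.5, which encode factors of progenitors, kidney, ectoderm and forebrain cholinergic neurons. Hox cluster genes had 3 of 39 with a promoter peak, Hoxd3, Hoxa7 and Hoxd12, with means of 7.58, 8.24 and 6.94, and none of these 3 had a promoter peak of either mark in NeuN+ nuclei.

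Among genes of the mature neuron, H3K4me3 in NeuN+ nuclei was the more frequent state. The list headed voltage-gated ion channel genes also takes in potassium channel genes that are not voltage-gated, such as Kcnk9. It gave 22 promoter peaks, of which 17 (77.3%) had H3K4me3 and no H3K27me3 at the promoter in NeuN+ nuclei, against 37.0% of all promoter peaks. The highest were Kcnk9, a two-pore potassium channel gene, with a mean of 11.1, and Hcn4, a pacemaker channel gene, with 10.1. For glutamate receptors and postsynaptic scaffolds it was 7 of 8, with Dlgap2, Grin2a, which encodes an NMDA receptor subunit, at 9.06 and Grm4, a metabotropic receptor gene, at 8.00. For receptors of monoamines, acetylcholine, opioids and peptides it was 16 of 23, led by the dopamine receptor gene Drd5 at 11.9 and the adrenergic receptor gene Adra2c at 10.6. Neuronal identity genes had it in 7 of 10 promoter peaks. Genes of GABA signalling and interneurons were divided, with 3 of 7, among them Gabra5 at 12.3 and Cck at 7.80, in this group and 4 of 7 with H3K27me3 in NeuN+ nuclei.

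Signalling and guidance genes lay in between. Wnt, BMP, Hedgehog and FGF genes gave 33 promoter peaks at 32 of 112 genes, 18 of them with H3K27me3 in NeuN+ nuclei. Ihh, a Hedgehog ligand, had a mean of 13.4, and the growth factor gene Bmp3 11.6. Axon guidance and adhesion genes gave 17 at 16 of 187 genes, and 7 of them had H3K27me3 in NeuN+ nuclei, among them Ntn1, which encodes the guidance cue netrin-1, at 8.27. Genes that mark glia, microglia and vessels gave 5 promoter peaks at 4 of 34 genes, Cldn5, Pdgfra, Flt1 and Sox9, with levels of at most 5.29 and a median of 2.64. None of the 12 PRC2 subunit genes and neither Ogg1 nor Mutyh had an H3K27me3 promoter peak in NeuN- nuclei.

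**Figure D3:**
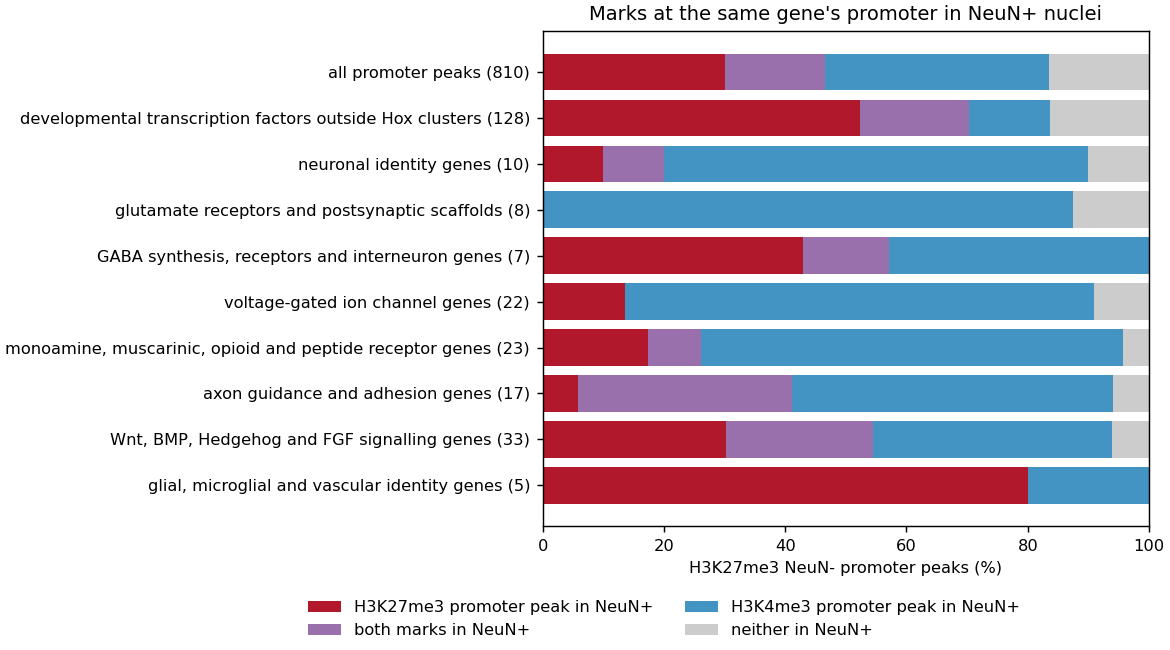
Share of the H3K27me3 promoter peaks of NeuN- nuclei (horizontal axis, percent) whose gene had an H3K27me3 promoter peak, an H3K4me3 promoter peak, both or neither in NeuN+ nuclei, for all 810 and for each gene list, with the number of peaks in parentheses. Developmental transcription factors have H3K27me3 in NeuN+ nuclei in 70.3%. The list headed voltage-gated ion channel genes, which also holds other potassium channels, has H3K4me3 without H3K27me3 there in 77.3%.

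The labels of the fractions were checked against marker genes. All 8 neuronal markers, among them Rbfox3, Snap25 and Camk2a, had an H3K4me3 promoter peak in NeuN+ nuclei and none had one in NeuN- nuclei. H3K27me3 promoter peaks were found at 2 of the 8 in NeuN- nuclei, Rbfox3 and Nefl, and at none in NeuN+ nuclei. The Nefl window had no read in any WT library, with means of 0.64, 4.35 and 3.74 in Mutyh-/-, Ogg1-/- and DKO. Of 8 oligodendrocyte lineage markers, H3K27me3 promoter peaks were found at 4 in NeuN+ nuclei, Sox10, Olig1, Olig2 and Pdgfra, and at Pdgfra in NeuN- nuclei. None of 6 astrocyte and none of 4 microglial markers had an H3K27me3 promoter peak in NeuN- nuclei. Of 3 endothelial markers, 2 had one, Cldn5 and Flt1, and both also had one in NeuN+ nuclei. H3K4me3 promoter peaks in NeuN- nuclei covered Olig1 and Slc1a2 among these non-neuronal markers, so most defining glial markers had no peak of the active mark in that fraction.

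At Rbfox3 there were 2 promoter windows, at -40 and -1478 bp from the start of different transcripts. The window at -40 bp, part of which is among the printed sequences, had 1.32, 4.15 and 6.92 in WT, 22.1, 1.06 and 2.31 in Mutyh-/-, 11.4, 6.54 and 9.54 in Ogg1-/-, and 15.6, 1.85 and 10.2 in DKO. Reads were present in all 12 libraries, and every knockout overlapped WT. The log2 fold changes against WT were 0.24, 1.13 and 0.83 for Mutyh-/-, Ogg1-/- and DKO, with a limma SE of 1.12, and adjusted p was 0.971 or more. The window at -1478 bp had 1.32, 0 and 3.46 in WT, 15.4, 0 and 2.31 in Mutyh-/-, 15.8, 3.27 and 0 in Ogg1-/-, and 17.3, 15.7 and 3.41 in DKO. It met the criterion for a differentially enriched region in DKO, by a log2 fold change of 2.34 ± 1.15 (SE), unadjusted limma p of 0.0423, and its adjusted p was 1.

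Each knockout was compared with WT to see at which promoters the mark differs when a glycosylase is missing. All 810 promoter peaks were tested with no filter on low values, in a limma fit over the 12 libraries and 1698 peaks. With Benjamini-Hochberg adjustment over the 1698 peaks, 0 promoter peaks had an adjusted p under 0.05 for Mutyh-/-, Ogg1-/- or DKO, and over the whole table the share was 0.00% in each. The smallest adjusted p of a promoter peak was 0.998, 0.963 and 1. edgeR and DESeq2 on whole reads also gave 0 promoter peaks. For the non-additive effect, DKO minus both single knockouts plus WT, the count was 0 too (0.00% of all peaks), with 12 promoter peaks at an unadjusted p under 0.05 and an absolute effect over 0.5 (2.47% of all peaks).

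The study's criterion for a differentially enriched region (DER) is an unadjusted p under 0.05 with an absolute log2 fold change over 0.5. By it, 10 of 810 promoter peaks (1.23%) were DERs in Mutyh-/-, against 2.00% of all peaks, and all 10 were higher than in WT, against 1.71% of all peaks. In Ogg1-/- there were 29 (3.58%), against 4.18%, with 28 higher, against 3.77%. In DKO there were 14 (1.73%), against 2.30%, with 13 higher, against 1.94%. The shares among promoter peaks were thus no larger than those of the table. The counts depended on single libraries: leaving out 1 gave 6 to 25 for Mutyh-/- (25 without Mutyh-/- replicate 3, 19 without Mutyh-/- replicate 1 and 6 without WT replicate 2), 10 to 79 for Ogg1-/- (79 without Ogg1-/- replicate 2, 10 without Ogg1-/- replicate 1 and 15 without Ogg1-/- replicate 3 or WT replicate 2) and 6 to 44 for DKO (44 without DKO replicate 2, 7 without DKO replicate 3 and 6 without DKO replicate 1). The single lower DERs were Chil3, which encodes a chitinase-like protein, in Ogg1-/-, and Adcy8, an adenylate cyclase gene, in DKO. Adcy8 had 6.62, 11.6 and 9.23 in WT and 5.20, 0 and 0 in DKO, with no overlap.

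All 3 libraries of the knockout lay above all 3 of WT at 46 promoter peaks for Mutyh-/-, 74 for Ogg1-/- and 43 for DKO, which is 5.68%, 9.14% and 5.31%. Over all peaks the shares were 5.59%, 9.01% and 5.77%. All 3 lay below WT at 5, 4 and 6 promoter peaks, against 1.00%, 0.766% and 1.00% of all peaks.

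Higher values were the more frequent direction in each knockout. The median log2 fold change of promoter peaks was 0.29 for Mutyh-/-, 0.54 for Ogg1-/- and 0.47 for DKO, against 0.28, 0.60 and 0.36 for the other peaks. Leaving out 1 library gave -0.28 (without Mutyh-/- replicate 1) to 0.65 (without Mutyh-/- replicate 3), 0.20 (without Ogg1-/- replicate 1) to 1.25 (without Ogg1-/- replicate 2), and 0.05 (without DKO replicate 1) to 1.05 (without DKO replicate 2). A single repeat peak of chromosome 2 held a large part of the reads that were counted in peaks. Of the 12 libraries, 6 had less than 60% of those reads there (20.6% to 57.0%) and a median promoter value of 5.29 to 10.6. The other 6 had 63.0% to 73.0% there and a median promoter value of 1.63 to 3.46. WT and Mutyh-/- had 1 library of the first kind each, and Ogg1-/- and DKO had 2 each. The kind went with the replicate number: replicate 1 of every genotype was of the first kind and replicate 2 of the second. Replicate 3 was of the second kind in WT and Mutyh-/- and of the first in Ogg1-/- and DKO. The part of these kinds of library in the fold changes was not tested. Scaled by TMM factors, the medians were 0.07, 0.12 and 0.20, and by cyclic loess 0.04, -0.02 and 0.05, and the share of DERs that were higher fell to 18 of 37, 10 of 33 and 11 of 25 with loess.

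Of the reads counted in non-repeat peaks, the share that lay in promoter peaks was 42.6% ± 11.8 in WT, 42.9% ± 11.8 in Mutyh-/-, 43.4% ± 19.2 in Ogg1-/- and 41.2% ± 19.8 in DKO (SD, n = 3 each). The differences from WT were 0.35, 0.87 and -1.41 percentage points, with two-sided exact permutation p of 0.9, 0.9 and 1, where 0.1 is the smallest p that 3 against 3 libraries can give. Single libraries lay between 19.0% and 57.3%. Without the peaks above a mean of 20 they lay between 52.3% and 62.7%, so most of the spread came from tall windows. Of these, 4 were promoter peaks and 22 were other peaks that are not repeats.

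**Figure D4:**
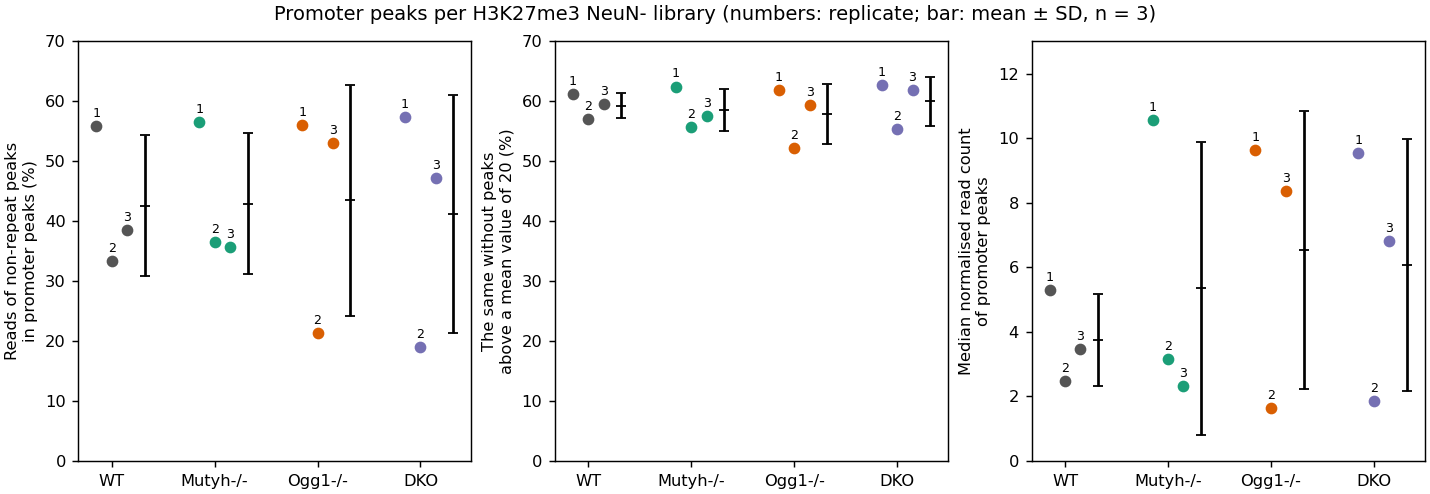
Share of the reads counted in non-repeat peaks that lay in promoter peaks, the same share without peaks above a mean value of 20, and the median normalised read count of the 810 promoter peaks, for each library by genotype, with replicate numbers beside the dots and mean ± SD (n = 3) as bars. The first panel runs from 19.0% to 57.3% and the second from 52.3% to 62.7%, with all genotypes overlapping in each.

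Across the 3 contrasts, 43 promoter peaks were a DER in at least 1 knockout, 7 in at least 2 and 3 in all, but the contrasts share the WT libraries. These are 5.31%, 0.864% and 0.370% of promoter peaks, against 7.01%, 1.24% and 0.236% of all peaks. The 3 were Spint1, which encodes an inhibitor of serine proteases at cell surfaces, Rasgef1a, a guanine nucleotide exchange factor gene, and Chat, which encodes choline acetyltransferase of cholinergic neurons. Spint1 had 0 in each WT library, 15.4, 1.06 and 4.62 in Mutyh-/-, 21.04, 1.63 and 14.3 in Ogg1-/-, and 18.2, 0 and 21.6 in DKO. DKO thus overlapped WT through its second library, while both single knockouts lay above it. The means were 6.37, 11.2 and 12.0 times the level that 3 reads over the WT libraries would give. Such ratios leave out the spread and counting error of the knockout libraries, so they are not lower bounds. Windows are consensus peaks of these same libraries. One with no WT read entered through knockout libraries, so a knockout above WT there followed in part from that choice and is no support for a difference. Leaving out Mutyh-/- replicate 1 took the unadjusted limma p for Mutyh-/- from 0.0285 to 0.160, leaving out any 1 WT library took it to between 0.0504 and 0.0529, and leaving out DKO replicate 3 took that for DKO from 0.0112 to 0.111, while without DKO replicate 1 it was 0.0850. For Ogg1-/- it was 0.00457 and stayed at 0.0444 or less.

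Chat also had 0 in each WT library, so the same limit of how windows were chosen holds for it. It had 2.88, 10.6 and 3.47 in Mutyh-/-, 4.38, 1.63 and 11.9 in Ogg1-/-, and 2.60, 5.55 and 4.54 in DKO, so no knockout overlapped WT. The means were 5.11, 5.43 and 3.84 times the level for 3 reads, and unadjusted limma p was 0.0280, 0.0308 and 0.0434. Its window has 0 CpG dinucleotides in the 300 bases shown, and the gene had an H3K27me3 promoter peak in NeuN+ nuclei too. Without Mutyh-/- replicate 2 the p for Mutyh-/- was 0.114, and it was above 0.05 without any 1 of the WT libraries.

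Rasgef1a had 0, 2.49 and 0 in WT, 22.1, 4.22 and 4.62 in Mutyh-/-, 14.9, 7.35 and 16.7 in Ogg1-/-, and 20.8, 1.85 and 7.95 in DKO. Ogg1-/- and Mutyh-/- lay above WT in every library, and DKO overlapped it. The log2 fold changes were 2.53 ± 1.13, 3.13 ± 1.13 and 2.44 ± 1.13 (SE), with unadjusted limma p of 0.0245, 0.00545 and 0.0305. For Mutyh-/-, p was 0.130 without Mutyh-/- replicate 1, 0.0762 without WT replicate 1 and 0.0790 without WT replicate 3.

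Among the other promoter peaks with the smallest p, those of Mutyh-/- were Rph3a, which encodes the synaptic vesicle protein rabphilin, L3mbtl4, which encodes a protein with methyl-lysine binding domains, and Esrrg, an orphan nuclear receptor gene. Their log2 fold changes were 2.69, 2.68 and 2.38, with an SE of 1.15, 1.15 and 1.13 and unadjusted limma p of 0.0196, 0.0196 and 0.0351. Each of the 3 lost a p under 0.05 when any 1 of 3 single libraries was left out, Mutyh-/- replicate 1 among them in each case, with p of up to 0.0606, 0.0636 and 0.177. In Ogg1-/- they were Paupar, a long non-coding RNA beside Pax6, Plch2, a phospholipase C gene, Dbx2, a homeobox gene of the neural tube, and Ephb4, an ephrin receptor gene. Dbx2 lost a p under 0.05 without WT replicate 3 (0.0650) or Ogg1-/- replicate 1 (0.0528), and Ephb4 without Ogg1-/- replicate 3 (0.0614). At Paupar, WT had 1.32, 0 and 0, Ogg1-/- 10.5, 8.17 and 13.1, Mutyh-/- 9.61, 3.17 and 3.47 and DKO 3.47, 2.77 and 4.54, with all 9 knockout libraries above WT. Its log2 fold change in Ogg1-/- was 3.11 ± 1.15 (SE), with an unadjusted limma p of 0.00698, and it kept a p of 0.0266 or less under all 18 alternatives. The alternatives refit the reads by which these peaks were picked, so this is no independent support.

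In DKO, the peaks with the smallest p included 3 homeobox genes of developing brain, Vax1, Isl1 and Dmbx1. Vax1 had 2.65, 0 and 0 in WT and 11.3, 8.32 and 18.2 in DKO. Its log2 fold change was 3.08 ± 1.14 (SE), with an unadjusted limma p of 0.00682. Its p was 0.0346 or less under all 18 alternatives, which refit the reads by which it was picked. In Mutyh-/- it had 22.1, 3.17 and 2.31 and in Ogg1-/- 7.89, 0 and 25.04, both overlapping WT. Isl1 was at 0 in WT and at 6.07, 2.77 and 9.08 in DKO, with a mean 5.42 times the level for 3 reads. Its unadjusted limma p was 0.0198 (0.0714 without DKO replicate 3). For Dmbx1 the p was up to 0.152 when a library was left out, and it was above 0.05 without WT replicate 1, WT replicate 2 or DKO replicate 1. Lrrc10b, which encodes a protein with leucine-rich repeats, and Ephb4 were also at 0 in WT. Their DKO means were 5.80 and 7.52 times the level for 3 reads, though for Ephb4 the p was 0.105 without DKO replicate 1. WT was at 0 in all 3 libraries at 21 of the 810 promoter peaks, against 2, 3 and 2 in Mutyh-/-, Ogg1-/- and DKO. The share over all peaks was not counted. A window with no WT read is a consensus peak through knockout libraries. WT at 0 with a knockout above it, as at Isl1, Lrrc10b and Ephb4, thus followed in part from how windows were chosen. WT libraries had 3209 to 4102 reads in promoter peaks. Those of Mutyh-/-, Ogg1-/- and DKO had 2445 to 11824, 2932 to 12109 and 2438 to 11730. More reads leave fewer peaks at 0, and the part of depth in these counts was not tested.

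**Figure D5:**
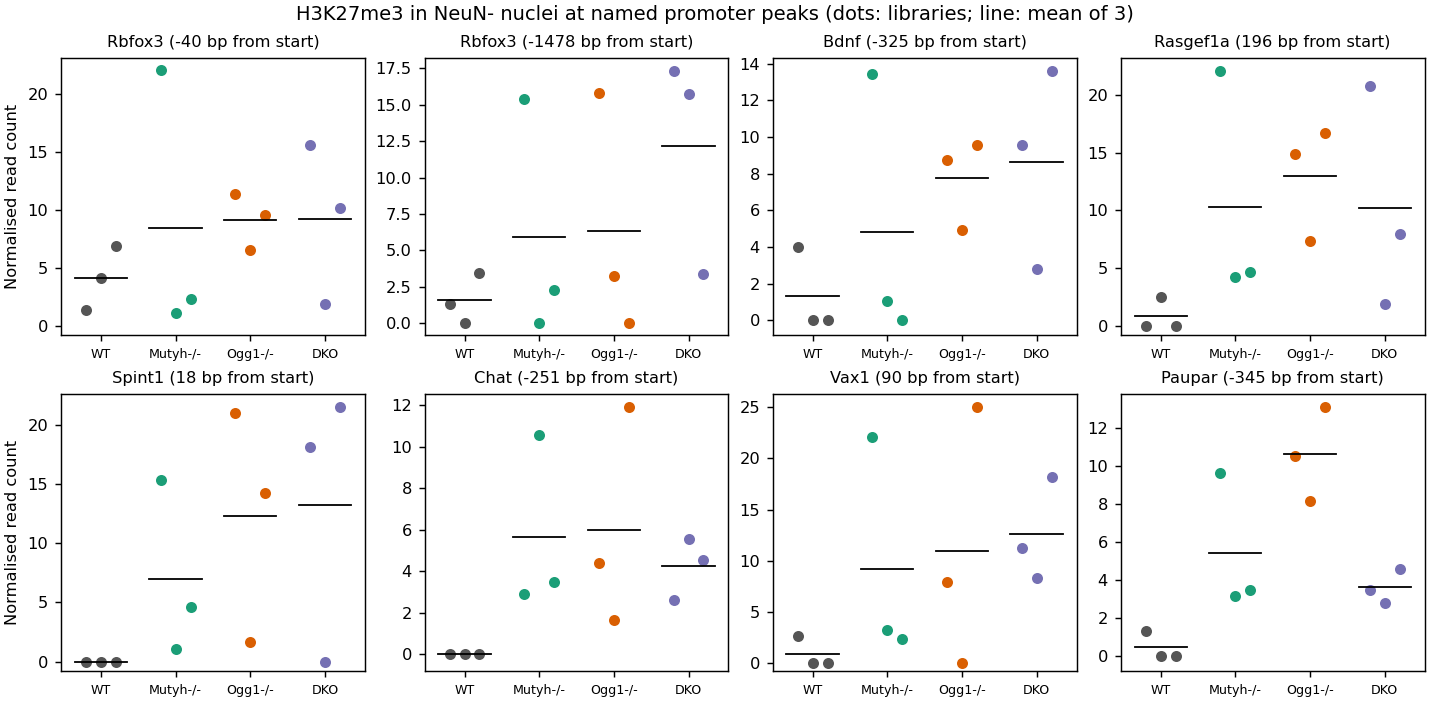
Normalised read counts of H3K27me3 in NeuN- nuclei at 8 promoter windows (vertical axes, each on its own linear scale) by genotype, with a dot per library and a line at the mean of 3 libraries. Chat, Spint1 and Paupar have WT libraries at or near 0, and at Spint1 and Rasgef1a at least 1 knockout library lies close to WT.

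Among the 11 genes singled out in the study's own account of these marks, Rbfox3, Bdnf, Npr3 and Wnt6 had a promoter peak. Bdnf, the neurotrophin gene of activity-dependent plasticity, had 3.97, 0 and 0 in WT, 13.5, 1.06 and 0 in Mutyh-/-, 8.77, 4.90 and 9.54 in Ogg1-/-, and 9.54, 2.77 and 13.6 in DKO. Ogg1-/- lay above WT in every library, and it met the DER criterion by a log2 fold change of 2.31 ± 1.15 (SE), with an unadjusted limma p of 0.0451. DKO met it too, with 2.29 ± 1.15 (SE) and an unadjusted limma p of 0.0471. Adjusted p was 0.963 and 1. Npr3, a natriuretic peptide receptor gene, had log2 fold changes of -1.58, 0.04 and -1.80, none of which met the criterion. Wnt6, a Wnt ligand gene, met it in Ogg1-/- alone, with 2.34 ± 1.15 (SE) and an unadjusted limma p of 0.0424, and differences between knockouts were not tested.

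By gene list, DERs were few, and the lists are small beside the shares of 2.00%, 4.18% and 2.30% over all peaks in Mutyh-/-, Ogg1-/- and DKO. Developmental transcription factors had 0, 5 and 2 DERs among 128 promoter peaks in Mutyh-/-, Ogg1-/- and DKO, all higher, with median log2 fold changes of 0.22, 0.59 and 0.38 beside 0.29, 0.58 and 0.41 over all peaks. Neuronal identity genes had 0, 2 and 2 of 10, with medians of 0.63, 1.03 and 1.15. Genes of the ion channel list had 0 in each contrast, with medians of -0.07, 0.43 and 0.62. Glutamate receptors and scaffolds, GABA genes and Hox genes also had 0. Wnt, BMP, Hedgehog and FGF genes had 1, 2 and 0 of 33, receptors of monoamines and peptides 1, 0 and 0 of 23, axon guidance genes 0, 1 and 1 of 17, and glial and vascular genes 0, 1 and 1 of 5. In lists of 10 peaks or fewer a single DER is above those shares, so nothing is read from them.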

How the data were processed

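H3K27me3 chromatin immunoprecipitation libraries of NeuN- nuclei were analysed together with the H3K27me3 table of NeuN+ nuclei and the H3K4me3 and Suz12 tables of both fractions. Per the submitters' processing notes and methods, the authors checked reads with FastQC 0.11.9, aligned them with Bowtie2 2.3.5.1, called enriched regions with SICER (epic2), counted reads over consensus peaks with DiffBind 3.10.1, used edgeR 3.42.4 and annotated peaks with ChIPseeker 1.36. The deposited values are signal: reads per peak divided by a factor per library. For H3K27me3 in NeuN- nuclei, 100% of the values were whole multiples of the smallest value (tolerance 0.001), which gave whole reads. Input libraries were not used here.

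Groups came from the sample labels, and labels do not say how animals were divided over replicates, so p-values measure the spread between these libraries. limma 3.58.1 was run on log2(value + 1) with a genotype term. Fold changes refer to that scale and understate changes at low values. The prior degrees of freedom were infinite, so p rested on the trend of spread over all peaks and not on a peak's own. Values were not counts as deposited, so edgeR 4.0.16 and DESeq2 1.42.0 on recovered reads were alternatives. Sequence, masking and CpG were read from GRCm38. Fits were also run on simulated reads in which all libraries had the same expected size and, apart from changed peaks, the same composition. The real libraries differ in both, so this run does not show how the fits behave on them. Members, lists and named peaks were chosen with earlier results of these data known. Named peaks were those of the glycosylase genes and of genes the study names, the 10 highest by level, up to 6 DERs per knockout by p, genes with 3 or more promoter peaks, up to 10 peaks with a NeuN- Suz12 peak and up to 4 per gene list; Adcy8, Chil3, the microRNA genes and the printed sequences were named after their values were seen. Intervals for counting error are not given, and the spread over libraries is given instead.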

Additional observations from a re-analysis of the deposited data

How the results depend on the processing

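No promoter peak had an adjusted p under 0.05 for any knockout under any alternative run, edgeR and DESeq2 included. The counts of DERs among promoter peaks, 10, 29 and 14 for Mutyh-/-, Ogg1-/- and DKO, depended on the processing. Among peaks with a mean of at least 5 they were 3, 9 and 5. With TMM factors the count for Mutyh-/- was 29 (30 with factors from promoter peaks alone, an alternative chosen after seeing the data), with cyclic loess the counts for Mutyh-/- and DKO were 37 and 25, with edgeR 22 and 25, and with DESeq2 40 and 26. With a pseudocount of 5 the count for DKO was 9. Leaving out 1 library gave 6 to 25, 10 to 79 and 6 to 44. Higher values made up 17 of 22, 21 of 26 and 21 of 25 DERs with edgeR and 24 of 40, 23 of 33 and 13 of 26 with DESeq2. The median log2 fold change ranged from -0.28 to 0.65, 0.20 to 1.25 and 0.05 to 1.05 when 1 library was left out, and for Ogg1-/- it was -0.021 with cyclic loess and -0.00248 with DESeq2. Of the 320 pairs of a named DER and an alternative, 285 kept an unadjusted p under 0.05, and 30 of the 35 that did not left out a library. These DERs were picked for a small p, and the alternatives refit the same reads. Keeping a small p is therefore no independent support. The cause of these changes was not tested.

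Same-numbered libraries of WT and a knockout had correlations of deviations between 0.00114 and 0.153 over all peaks, all above 0 but not all above 0.1. Libraries with different numbers had -0.134 to 0.0315, the latter for Ogg1-/- replicate 3 with WT replicate 1. The numbers were not taken as pairs in the main fit. Structure that goes with the number, such as the kind of library in replicates 1 and 2, therefore stays in its spread. With the number as a replicate block, DERs were 33, 69 and 33.

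The difference in level between promoter and other peaks was -0.30 at a mean of at least 5. The Suz12 difference was 0.23 without peaks above a mean of 20, which was chosen after seeing the data. The H3K4me3 difference in NeuN- nuclei was -0.049 with a pseudocount of 5, -0.082 at a mean of at least 5, -0.14 without repeat peaks and -0.083 with an overlap of at least 50% of a window, none of which passed the test, and -0.23 to -0.15 when 1 library was left out, with the call lost in 8 of 12 cases. It was -0.50 within 1 kb and -0.26 with peaks matched by gene, and both passed the test. The other level differences kept direction and call under every alternative run. The differences in promoter share were -1.60 (Mutyh-/-) and -2.04 (Ogg1-/-) within 1 kb, -0.66, -1.38 and 0.73 without peaks above a mean of 20, and 8.11 for DKO with all peaks as the total. Leaving out 1 library gave -6.47 to 6.99, -5.42 to 11.9 and -9.49 to 9.67. Depth limits all values of single promoters, with a median of 2 to 11 reads per peak and library.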
